A study of Homo sapiens with 2 samples.

Results

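The 3 genes of heterochromatin protein 1 (HP1), CBX1, CBX3 and CBX5, were examined for binding by the Y-box protein YBX1. A site of the YBX1 list was counted for a gene when its midpoint lay between the ends of that gene in GENCODE on the same strand. Of 2054 listed sites, 9 met this rule, with 8 in CBX5, 1 in CBX3 and 0 in CBX1. The sites came from PAR-CLIP of YBX1 in HEK293 cells, a human embryonic kidney cell line. In PAR-CLIP, 4-thiouridine in new RNA is crosslinked to bound protein by UV light and the RNA is then trimmed with RNase T1, which cuts after G. Per the methods, the line was T-REx HEK293 Flp-In with stable overexpression of YBX1 carrying FLAG and HA tags, precipitated through FLAG, while the sample labels name the YBX1 antibody D2A11. Both libraries belonged to this group, and no control libraries were analysed here. The 2 replicates were merged by the authors into a list of positions without read counts, conversion rates or scores, so sites have no strength, no value exists per replicate, and the intervals below cover counting error only.

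HP1 proteins are small adaptors of heterochromatin. Their chromodomain reads methylated lysine 9 of histone H3, and their chromoshadow domain forms dimers and recruits partners such as TRIM28 and CHAF1A. CBX5 encodes HP1-alpha and CBX1 encodes HP1-beta, both typical of pericentromeric heterochromatin, and CBX3 encodes HP1-gamma, which is also found in transcribed genes. YBX1 is a cold-shock domain protein that binds mRNA, mostly in the cytoplasm, and takes part in mRNA stability and translation.

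The 9 site sequences are shown because they are all the listed YBX1 sites in the HP1 genes. They were read from hg38 on the RNA strand, 5′ to 3′, with T for U, in the order of the mRNA. Capitals mark 4 tetramers, which were searched on the RNA strand only and may overlap. The tetramer CATC was taken as the core of a YBX1 motif and the tetramer CACC as a variant of it. The tetramer CAAC and the tetramer AACA were frequent in the whole list. No single motif is settled: the paper states that earlier studies differed, and its own search of these sites gave an unspecific pattern rich in C and A.
CBX5 site 1, chr12:54241438-54241460, minus strand: tttCAACtttttaatCACCttag
CBX5 site 2, chr12:54239686-54239705, minus strand: ctcataaaccatacctcaag
CBX5 site 3, chr12:54239195-54239214, minus strand: CATCtactacttacCATCtg
CBX5 site 4, chr12:54238893-54238910, minus strand: cactcttaAACACCtaag
CBX5 site 5, chr12:54235834-54235857, minus strand: ttctatAACAACAtattcctcatg
CBX5 site 6, chr12:54234829-54234852, minus strand: ttCATCtAACATCATCtcatattg
CBX5 site 7, chr12:54231944-54231973, minus strand: cttaccactcccCAACcaatcccaggacag
CBX5 site 8, chr12:54231613-54231632, minus strand: ccttactctttcCATCtcag
CBX3 site 1, chr7:26212456-26212479, plus strand: tatatcatttcctcttcattaaag

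All 9 sites lay in 3′UTRs. The coding sequences of the 3 genes, 1677 nt in all, held 0 sites, and their 5′UTRs and introns held 0 as well. Their 3′UTRs are far longer, at 13588 nt in all, so 0 sites in coding sequence says little. On the opposite strand of the 3 genes 0 sites were listed. All 9 sequences end in G, the base after which RNase T1 cuts, and 7 of them also follow a G. CBX5 sites 3 and 6 follow a T. Site 7 of CBX5 is the widest of the 9 at 30 nt and has 2 further G inside, whereas none of the others holds a G before its last base. The widths of the other 8 were 18 to 24 nt, against a median of 22 nt over the whole list. Every site held U, the base that carries the crosslink, from 4 in CBX5 sites 2, 4 and 7 to 11 in CBX5 site 1 and in the CBX3 site.

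The 3 paralogs encode proteins of like size, and their 3′UTRs differ in length. The coding sequences give proteins of 185 (CBX1), 183 (CBX3) and 191 (CBX5) residues. In global alignments, the share of aligned columns with identical residues, with gap columns counted, was 66.7% for CBX1 and CBX3. It was 62.9% for CBX1 and CBX5 and 57.2% for CBX3 and CBX5. The 3′UTR of the MANE Select transcript is 1376 nt long in CBX1 (chr17:48070059-48071434, minus strand), 1399 nt in CBX3 (chr7:26212209-26213607, plus strand) and 10813 nt in CBX5 (chr12:54230942-54241754, minus strand), in each gene within a single exon. It makes up 63.1% of the CBX1 mRNA, 67.9% of the CBX3 mRNA and 93.65% of the CBX5 mRNA. The longest run of bases that a site has in common with the mRNA of a paralog was 9 nt, shorter than the reads, of which only those above 16 nt were aligned. Between the whole mRNAs of CBX3 and CBX5 the longest shared run was 19 nt, in the coding sequence.

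The CBX5 sites were spread over the whole 3′UTR. Counted from the stop codon, they began at nt 295, 2050, 2541, 2845, 5898, 6903, 9782 and 10123 of 10813. Cut into 3 equal parts, the 3′UTR held 4 sites in the part next to the stop codon, 2 in the middle and 2 in the part next to the mRNA end. The gaps between neighbours ran from 284 to 3035 nt with a median of 981 nt. The closest pairs were sites 3 and 4, sites 7 and 8 and sites 2 and 3. The only site of CBX3 began at nt 248, 17.7% of the way along its 3′UTR, close in position to CBX5 site 1, although the pair share no long run of bases.

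Most CBX5 sites exist only in the long form of the mRNA. GENCODE lists a shorter transcript with a coding sequence of 573 nt, as in the long form, and a 3′UTR of 1130 nt, and of the 8 sites only site 1 lies in it. The other 7 lie in the 9683 nt beyond its end. The density was 0.885 sites per kb in the 3′UTR of the short form (exact Poisson 95% interval 0.0224 to 4.93) and 0.723 per kb beyond it (0.291 to 1.49), and the first interval contains the second. In CBX3, the site lies in the 3′UTRs of 1399, 1321 and 1148 nt of 3 transcripts and not in the 3′UTR of 625 nt of a further transcript. The list of sites does not show which forms HEK293 cells make.

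**Figure D1:**
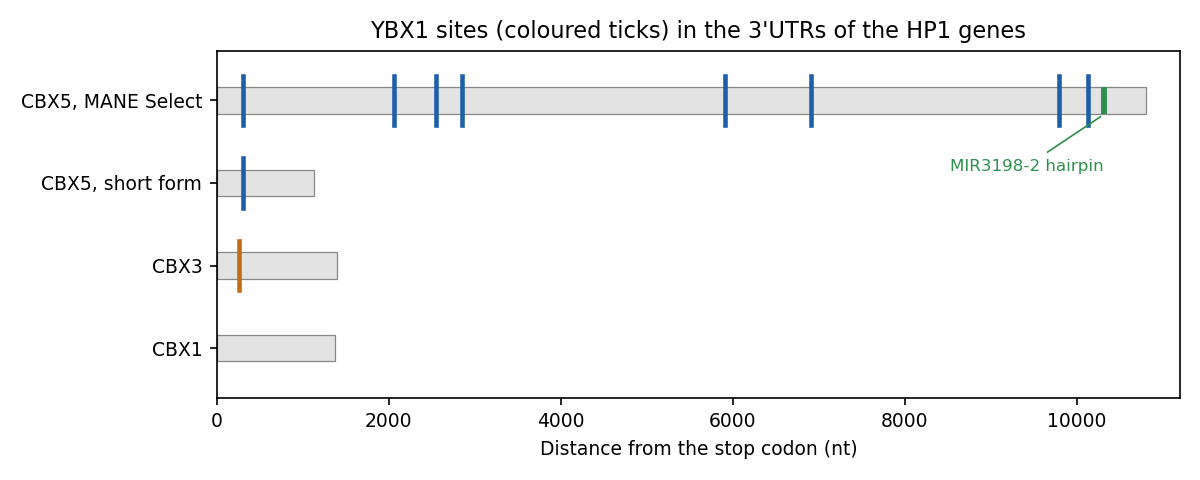
The 3′UTRs of CBX5 (MANE Select and the short form), CBX3 and CBX1 drawn to scale as grey bars, with distance from the stop codon in nt on the x axis and each YBX1 site as a coloured tick. The long CBX5 3′UTR carries 8 sites along its 10813 nt, the short form and CBX3 carry 1 each near the start, and CBX1 carries 0. The green block is the MIR3198-2 hairpin.

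Per length of the MANE Select 3′UTR, CBX5 and CBX3 had close values. CBX5 had 0.740 sites per kb of 3′UTR (exact Poisson 95% interval 0.319 to 1.46) and CBX3 had 0.715 (0.0181 to 3.98), while CBX1 had 0 with an upper limit of 2.68. This closeness depended on the setting. Over all annotated 3′UTRs of each gene, CBX5 stayed at 0.740 and CBX3 had 0.455 per kb, and with sites up to the median width dropped, CBX5 had 0.370 and CBX3 stayed at 0.715. With 0 and 1 sites in the short 3′UTRs, the intervals of CBX1 and CBX3 are wide and both include the value of CBX5, so a difference in density between the paralogs was not detectable here. The absence of CBX1 from the list does not show that its mRNA was not bound, and the expression of the 3 genes in HEK293 cells was not used here. The study followed up CBX5 knowing that it had sites, so its values are given as a description, with no test.

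Full digestion by RNase T1 would leave long fragments where the RNA lacks G. Such stretches were counted as a second, rough measure of the sequence open to sites. CBX5 site 7, with its 2 inner G, runs past its stretch. A stretch here is a run without G, with the G that ends it, of at least 16 nt. Those of exactly 16 nt are counted too, although only reads above 16 nt were aligned. After full digestion they would be too short to give a site, so the counts below include some stretches not open to sites. The 3′UTR of CBX5 holds 88 of these, that of CBX3 holds 10 and that of CBX1 holds 8, or 8.14, 7.15 and 5.81 per kb. Of the 88 stretches in CBX5, 8 held a site, 9.09 per 100 stretches (exact Poisson 95% interval 3.92 to 17.9). In CBX3 it was 1 of 10, or 10 per 100 (0.253 to 55.7), and in CBX1 0 of 8, with an upper limit of 46.1 per 100. Stretches of 18 to 32 nt, the lengths that held the CBX5 sites, numbered 52 in CBX5, 4 in CBX3 and 3 in CBX1.

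**Figure D2:**
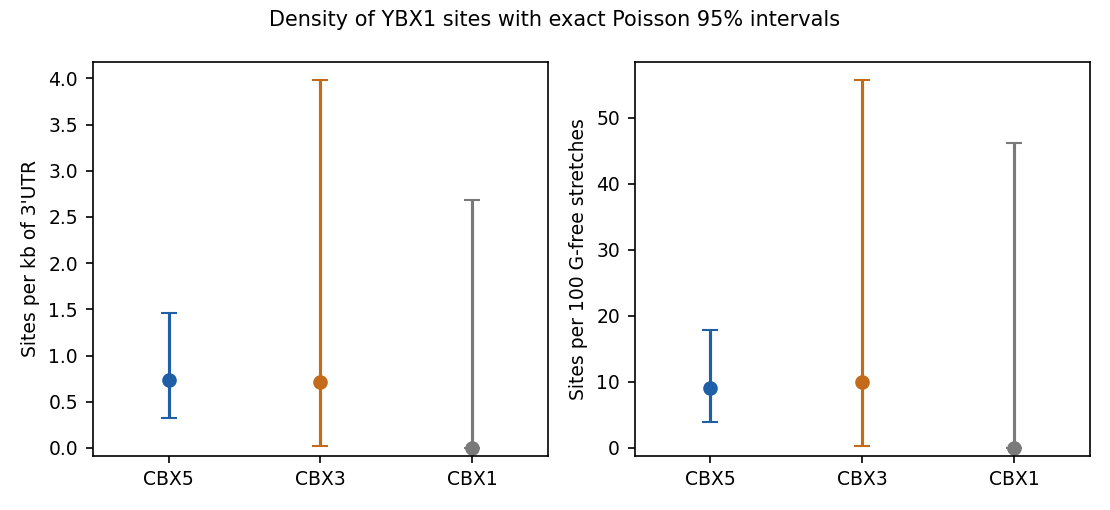
YBX1 sites per kb of 3′UTR (left) and per 100 G-free stretches of at least 16 nt (right) for CBX5, CBX3 and CBX1. Points are the values and bars the exact Poisson 95% intervals. CBX5 and CBX3 lie at 0.740 and 0.715 per kb, with a much wider interval for CBX3, and CBX1 lies at 0.

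Among all 20046 protein-coding genes, 6.81% had at least 1 site by the same rule, and 2 of the 3 HP1 genes did. Counting 3′UTRs alone, with 1 transcript for each gene, 3.83% of 19230 genes had a site. Most genes with a 3′UTR as long as those of CBX1 and CBX3 had none. Of 4037 genes with a 3′UTR of 1000 to 2000 nt, 3.77% had a site, 129 with 1 site, 21 with 2 and 2 with 3, so CBX1 stood with the 3885 genes at 0 and CBX3 with the 129 at 1. Long 3′UTRs had a site in 10.4% of 1314 genes at 5000 nt or more and in 12.6% of 174 genes at 10000 nt or more. In that last class 22 genes had a site, 15 of them 1, 5 of them 2, 1 of them 3 and CBX5 8. The density of CBX5 was also above that of most long 3′UTRs with a site. The 137 bound genes with at least 5000 nt had a median of 0.171 sites per kb, where CBX5 ranked 6th with 0.740, and a median of 1.89 sites per 100 G-free stretches, where CBX5 ranked 4th with 9.09.

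In the number of 3′UTR sites CBX5 stood at rank 2 of 736 genes. By number of sites in this pooled list, the genes most like it, with at least 5 sites in a 3′UTR of 5000 nt or more, included NUCKS1, CCND2 and RLIM. NUCKS1, whose product is a chromatin-associated nuclear protein, had 10 sites in 5458 nt. CCND2, cyclin D2, had 5 in 5344 nt, and RLIM, a ubiquitin ligase, had 5 in 8464 nt. The 3′UTR of CBX5 is longer than that of each of these.

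**Figure D3:**
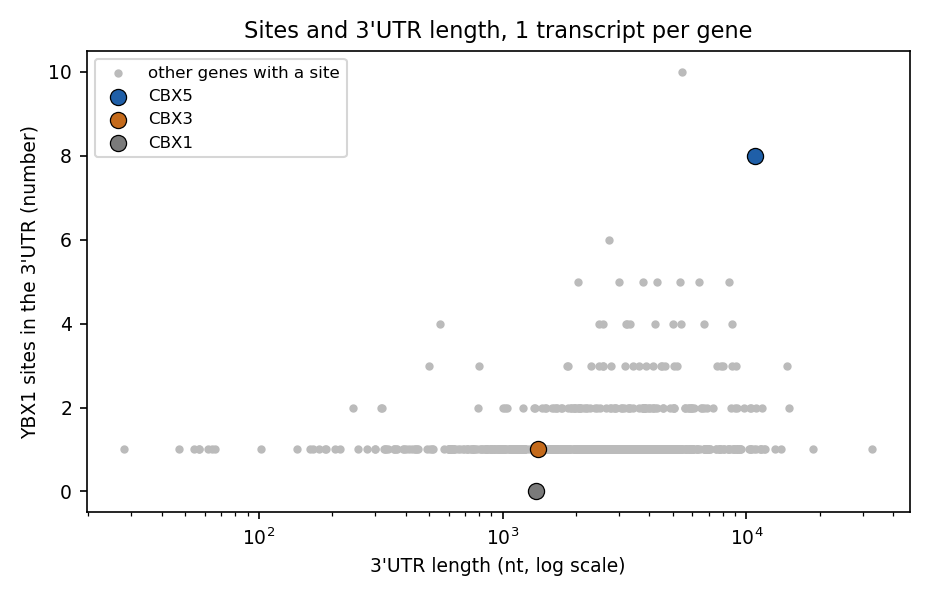
Number of YBX1 sites in the 3′UTR (y axis) against 3′UTR length in nt (x axis, log scale) for 1 transcript of each of the 736 genes with a site (grey), with CBX5 (blue), CBX3 (orange) and CBX1 (dark grey, 0 sites) marked. CBX5 lies apart at 8 sites and 10813 nt, while CBX3 lies in the dense row of genes with 1 site.

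The tetramers were present in nearly all CBX5 sites. At least 1 of the 4 was found in 7 of the 8 sites (87.5%, Wilson 95% interval 52.9 to 97.8) and in 60.5% of the 2054 sites of the list (58.4 to 62.6), which include these 8. CATC or CACC was found in 5 of the 8 CBX5 sites (62.5%, 30.6 to 86.3) and in 36.0% of all sites (34.0 to 38.1). Each listed site was searched over its full width, which ran from 14 to 43746 nt with a median of 22 nt. Very wide sites hold a tetramer more readily, and width was not matched. Site 6 was the richest, with CATC at 3 places and AACA at 1. Site 3 holds CATC at 2 places. Site 5 has AACA at 2 places that overlap with CAAC. CBX5 site 2 and the CBX3 site hold none of the 4. The CBX3 site is rich in U (45.8% of its bases), but so is CBX5 site 1 (47.8%), which holds CAAC and CACC. The lack of a tetramer in a site says only that these letters are not in this window.

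Tetramers were common in the 3′UTRs outside the sites too. The 3′UTR of CBX5 holds 163 of them, 15.1 per kb, that of CBX1 19, or 13.8 per kb, and that of CBX3 17, or 12.2 per kb. Of the 163 in CBX5, 15 (9.20%) lie in sites, which cover 1.66% of the 3′UTR. The tetramers hold no G and the sites are largely runs without G, so the whole 3′UTR is not a like background. CAAC and AACA were also chosen as frequent in a list that includes these sites. CBX1 carries CATC at 7 places and CACC at 3, and none of them lies in a listed site. Among G-free stretches of the CBX5 3′UTR, CATC or CACC was present in 24 of the 80 without a site (30.0%) and in 5 of the 8 with a site. Any of the 4 was present in 34 of the 80 (42.5%) and in 7 of the 8. Of the G-free stretches without a site, 3 of 9 in CBX3 and 3 of 8 in CBX1 held a tetramer.

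The content of C and A of the CBX5 sites was above that of their whole 3′UTR and overlapped with that of other G-free stretches. It was 62.4% ± 10.8 (SD, n = 8 sites), with a range from 47.8% in site 1 to 76.7% in site 7, and 46.8% in the whole 3′UTR. The CBX3 site had 50%, in a 3′UTR of 46.7%. In the stretches, it was 62.6% ± 11.5 (SD, n = 8 stretches) with a site and 55.4% ± 14.5 (SD, n = 80 stretches) without. The medians lay the other way, at 57.4% with a site and 57.9% without, and 41 of the 80 were at or above the median of the 8. The median length was 23.0 nt with a site and 19.0 nt without. In C and A, the CBX5 sites thus lay within the range of the other fragments of this kind. None of these differences was tested.

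The CBX5 sites were predicted to be somewhat more open than their whole 3′UTR but close to its G-free stretches without a site. RNAplfold computes from sequence alone the chance that each base is unpaired. The mean over a site was 0.502 to 0.738 in the 8 CBX5 sites, with a median of 0.575, against a median of 0.467 over all windows of 21 nt in the 3′UTR. Site 3 was the most open at 0.738 and site 4 the least at 0.502. The CBX5 stretches without a site had a median of 0.571. The CBX3 site was at 0.393, below the mean of its 3′UTR (0.462).

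**Figure D4:**
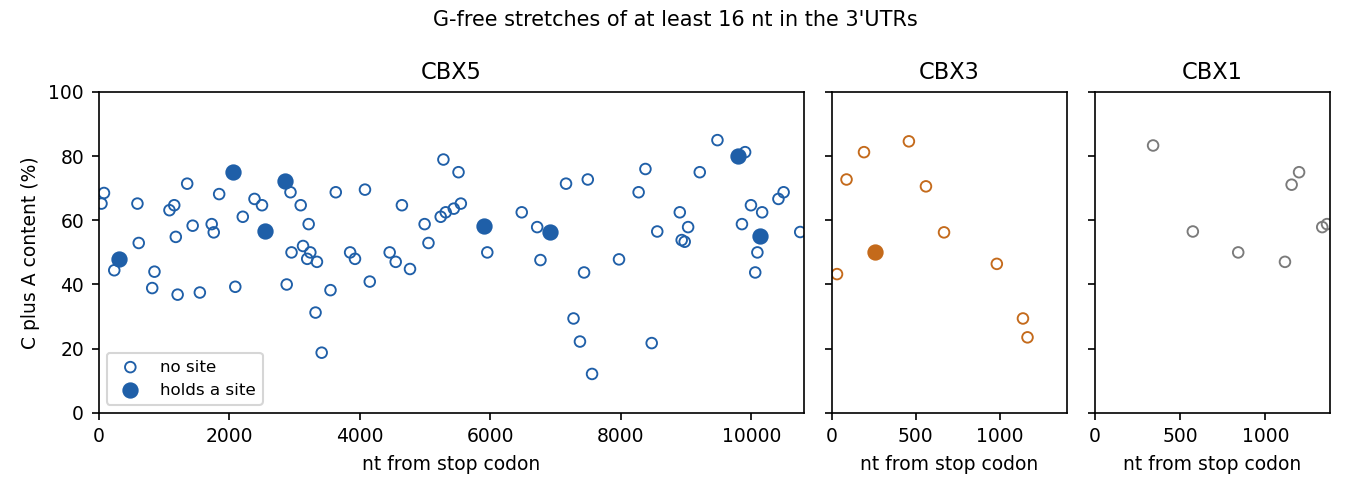
C plus A content (y axis, percent) of each G-free stretch of at least 16 nt against its distance from the stop codon in nt (x axis) in the 3′UTRs of CBX5, CBX3 and CBX1. Filled circles hold a YBX1 site and open circles do not. The filled circles lie among the open ones in height, and in CBX5 they run from the start to the end of the 3′UTR.

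The last part of the CBX5 3′UTR has copies elsewhere in the genome. From nt 8745 to 10809 it aligns with an unannotated stretch of chromosome 10 (chr10:81143121-81145182) at 93.6% identity, and from nt 9232 to 10809 with BID, a pro-apoptotic BCL-2 family gene (chr22:17763723-17765335), at 93.4%. CBX5 sites 7 and 8 lie in this block. The sequence of site 8 occurs at 3 places, in CBX5, in BID and in the chromosome 10 copy, and that of site 7 occurs once, with a copy in BID that differs by 1 base. Reads of site 8 therefore cannot be assigned to CBX5 by sequence, and a read of site 7 differs from BID at 1 position at most. In the aligned stretches of BID and of chromosome 10, 0 sites were listed. The authors' gene column names both sites after MIR3198-2, a miRNA gene whose hairpin of 80 nt lies in the CBX5 3′UTR on the same strand (nt 10279 to 10358), and puts them in promoters. The hairpin starts 136 nt past the end of site 8 and 467 nt past that of site 7, so neither overlaps it. The related MIR3198-1 lies in the BID copy.

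The other sites of CBX5 and the CBX3 site have sequences that occur once. With up to 1 mismatch, CBX5 sites 1, 2, 5 and 6 still had a single place, site 3 had 1 further place and site 4, the shortest, had 4, none of them in an annotated gene on that strand. Site 8 had 5 places in all, and 3 of these were exact. The CBX3 site had 1 near copy, on chromosome 6, which lies 243 nt past the end of the annotated pseudogene CBX3P9. There, 1153 aligned nt of the CBX3 3′UTR have 92.2% identity, and 0 sites were listed. Counting only sites without such near copies, a setting added after seeing the data, CBX5 had 4 sites and CBX3 had 0. Of the 16 annotated pseudogenes of the HP1 genes, 10 of them from CBX3, 5 from CBX1 and 1 from CBX5, 0 carried a site on either strand.

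The chromobox genes CBX2, CBX6, CBX7 and CBX8, whose chromodomain proteins belong to Polycomb repressive complexes, had 0 sites each, with 3′UTRs of 2941, 4787, 3119 and 2503 nt. At least 1 site was found in 6.81% of all protein-coding genes, so 0 is the usual count. No contrast with the HP1 genes is drawn from these few genes.

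Among 26 genes for proteins that bind HP1 or that methylate lysine 9 of histone H3 or lysine 20 of histone H4, 6 had a site (23.1%, Wilson 95% interval 11.0 to 42.1), against 6.81% of all protein-coding genes. The 3′UTRs of the list are longer (median 1484 nt against 1064 nt) and neither length nor expression was matched, so nothing is drawn from this share. The methyltransferases SUV39H1, SUV39H2, SETDB1, EHMT1 and EHMT2 had 0 sites each. ADNP, a zinc-finger protein of the ChAHP complex with HP1, had 3 sites, of which 1 lay in its 3′UTR (chr20:50891101-50891125) and 2 in coding sequence (chr20:50893379-50893400 and chr20:50893620-50893644). TRIM28, the corepressor that brings HP1 and SETDB1 to KRAB zinc-finger targets, had 1 in its 3′UTR of 162 nt (chr19:58550693-58550713), which the authors' column gives to MIR6807. LRIF1 (chr1:110948223-110948243), the kinetochore protein CHAMP1 (chr13:114325671-114325693) and the cohesin loader NIPBL (chr5:37006434-37006455) had 1 each in coding sequence. POGZ, which binds the chromoshadow domain, had 1 in its 5′UTR (chr1:151459262-151459285). All 8 sequences occur once in the genome.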

How the data were processed

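PAR-CLIP of YBX1 was performed in HEK293 cells in 2 replicates. Per the methods and the submitters' processing notes, the authors removed adapters (cutadapt 1.4.1), mapped reads to genome and transcriptome with the PARA-suite, called sites per strand with BMix and annotated them with HOMER. The deposited list gives chromosome, start, end, strand, nearest gene and class. The listed end was read as 1 past the site, because a G then stands at the RNA 3′ end of 85.4% of plus-strand sites, against 22.2% otherwise. On the minus strand, where the listed start is the 3′ end, it stands there in 89.98%. Genes and 3′UTRs were taken from GENCODE release 44 on hg38, the build of the list, with 1 transcript per gene (MANE Select, else canonical, else the longest coding sequence). A stretch counted as holding a site at an overlap of at least 10 nt. Copies were searched over hg38, both strands, and aligned with blastn. Proteins were aligned globally with BLOSUM62 (Biopython 1.88). Pairing was computed with RNAplfold 2.7.2 (window 150 nt, pairs up to 100 nt). No test was run. Counting functions were tested on simulated data. The members, gene lists and tetramers were chosen with earlier results of these data known. The alternatives tried were any overlap, no regard to strand, the authors' gene names, unique sequences, wide sites, sites within 50 nt merged, all 3′UTRs of a gene, and sites extended by 10 nt. Named were the members with all their sites, their pseudogenes, CBX2, CBX6, CBX7 and CBX8, listed partners with a site, and genes with at least 5 sites in a 3′UTR of at least 5000 nt, and some items under this rule are not reported here. BID, MIR3198-2, CBX3P9, the H3K9 methyltransferases without a site and the neighbours of the members were named after their values were seen. The pairing and copy analyses were also added then.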

Additional observations from a re-analysis of the deposited data

How the results depend on the processing

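Of 43 recomputed values, 6 moved and 37 did not, with counts held to within 1.5 times, densities to their counting interval and C and A content to 1 SD. Of the 37, 7 belong to CBX1 under alternatives that only remove or join sites and so could not change a count of 0. The density intervals are wide, so a fall of CBX5 from 0.740 to 0.370 per kb did not count as moved. The matching fall from 8 to 4 sites did. When sites up to the median width were dropped, CBX5 kept 4 sites, level with 1 other gene at rank 1, and 3 HP1 partner genes had a site. With only sites that have no other place at up to 1 mismatch, an alternative chosen after seeing the data, CBX5 kept 4 sites and CBX3 kept 0 (0 per kb). The authors' gene column gave CBX5 6 sites. CBX1 also had 0 sites by any overlap, without regard to strand and by the authors' gene names. Extended by 10 nt on each side, the CBX5 sites had 53.4% C and A. Replicates could not be left out in turn because the list pools them, and depth per site is unknown.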

Other observations

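The genes that start next to CBX5 and CBX3 in the opposite direction encode hnRNP proteins of the A/B family, which package nuclear RNA. Both had a listed site, against 6.81% of all protein-coding genes with at least 1. The neighbours were named after their values were seen, so no pattern is drawn from them. HNRNPA1, whose start lies 60 nt from that of CBX5, had 1 site, in its 3′UTR in GENCODE and intergenic in the authors' annotation. HNRNPA2B1, whose start lies 367 nt from that of CBX3, had 1 site in its 3′UTR. SNX11, which encodes a sorting nexin, starts 1879 nt from CBX1, and had 0 sites. NFE2L1, a transcription factor gene within 10 kb of the other end of CBX1, had 2 sites, both in exons by the authors' annotation.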
